A study of Mus musculus with 16 samples.

Results

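The 38 genes described here are linked to hepatic stellate cells and liver matrix. The set covers collagens, stellate and contractile proteins, proteoglycans and adhesive proteins, enzymes that remodel or crosslink matrix, and TGF-β signalling. Arrays of whole liver do not show which cells express a gene. The 38 genes were chosen by name, with earlier results of these data known. Every array probe annotated to any of them was taken, dim ones included. Of the 38 genes, 36 had a probe, and *Fn1* and *Col6a3* matched none. The 36 genes had 53 of the 25697 probes on the array. Of these, 37 probes of 29 genes were among the brighter 50.8% of probes by mean signal, the set in which the strains were compared. The other 16 probes were dim, and 7 genes, *Col1a2*, *Col5a2*, *Col6a2*, *Tagln*, *Thbs1*, *Timp1* and *Lox*, had only dim probes.

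RNA from 16 liver samples of male mice was hybridised to Illumina bead arrays, 8 samples of strain A/J and 8 of strain C57BL/6J. All were on the high-fat, high-calorie (HFHC) diet, and the labels give an age of 8 weeks. The methods give an age range that starts at 8 weeks, and 8 wk of feeding. Whether that age is at the start of feeding, and whether the label counts age or feeding, is not said. No sample on another diet was analysed here, so that the comparison is between inbred strains on 1 diet. The methods describe pools of 2 mice and the labels name none. Whether the 8 samples of a strain are 8 separate pools is not said, and a *P* value therefore reflects only the sample-to-sample spread, which may be technical. Values are log2 signals after quantile normalization by the authors, differences are A/J minus C57BL/6J, and a fold change is 2 to the power of the difference.

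Hepatic stellate cells lie between hepatocytes and the sinusoidal endothelium and store vitamin A as retinyl esters. In injured liver they can become contractile myofibroblasts, which express smooth muscle actin and secrete fibrillar collagen, and the cytokine TGF-β is a main driver of that change. TGF-β binds a type II receptor, which recruits and phosphorylates a type I receptor, and the type I receptor then phosphorylates SMAD proteins. Laid-down collagen is crosslinked by lysyl oxidases and degraded by matrix metalloproteinases, which tissue inhibitors of metalloproteinases hold in check.

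Few of these genes differed between the strains by much, and most of those that differed were lower in A/J liver. A probe was called at an adjusted *P* of 0.05 or less (limma, Benjamini-Hochberg) with a fold change of at least 1.5. By this rule 1 of the 37 brighter probes was called, that of *Tgfbr2*, against 4.86% of all probes compared in either direction and 2.96% lower in A/J. By the adjusted *P* alone, 11 of the 37 probes (29.7%) were lower in A/J, where 11.9% of all probes compared were, and 3 (8.11%) were higher, where 14.6% were. With the brightest probe standing for each gene, 10 of 29 genes (34.5%) were lower and 3 (10.3%) higher, against 12.6% and 15.5% of all genes compared, and 16 passed in neither direction, with 1 of 29 called against 5.29% of all genes. The median difference over the 29 genes was -0.16 on the log2 scale, against 0.013 over all genes. *Col1a1*, counted as lower, averaged 7.905 in A/J, below the lowest mean of a brighter probe, 7.997. It was in the compared set only through its C57BL/6J samples, with a mean of 8.234. The genes were chosen with earlier results of these data known, so that these shares are no independent test. Since the tissue was whole liver, fewer cells of a type and less RNA per cell cannot be told apart.

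**Figure D1:**
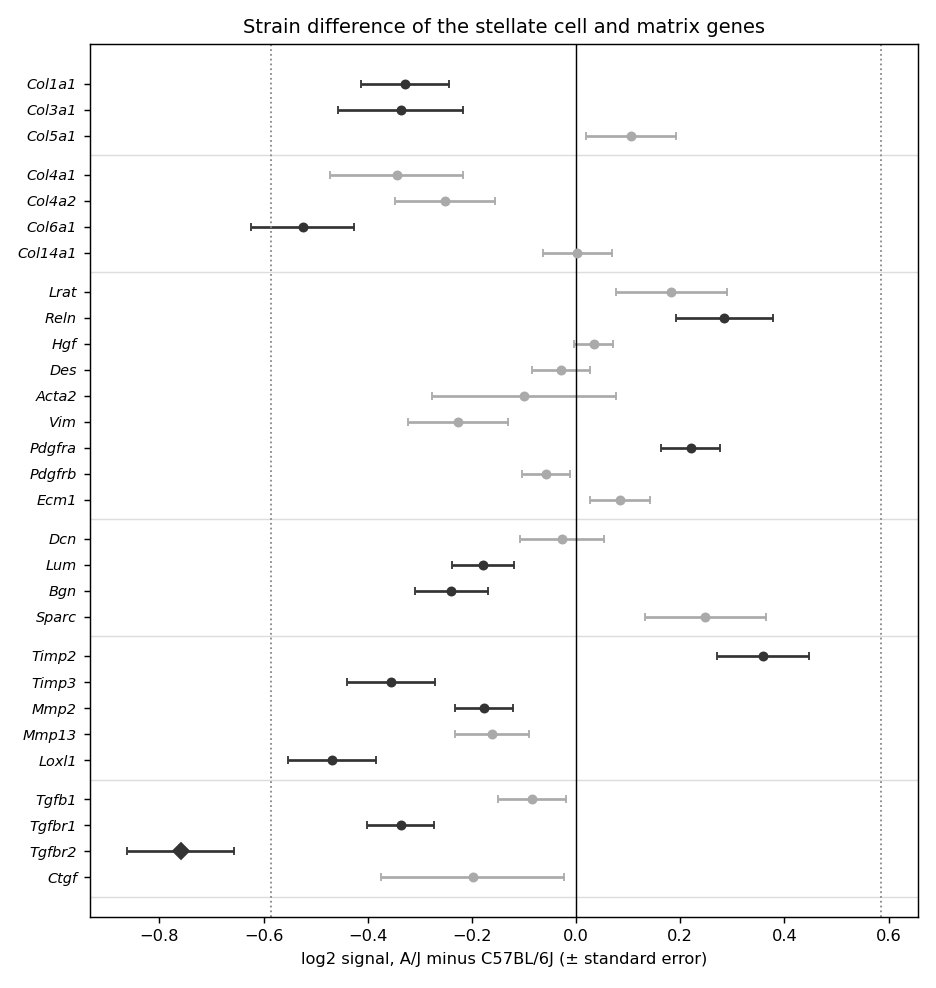
Log2 difference, A/J minus C57BL/6J, of the 29 genes with a brighter probe (points, with standard errors as bars), with dotted lines at 1.5-fold in each direction. Dark points passed the adjusted *P*, grey points did not, and the diamond marks *Tgfbr2*, the 1 gene that was also past 1.5-fold.

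The largest difference among the 29 genes was that of *Tgfbr2*, the type II TGF-β receptor, on chromosome 9. Its promoter is shown beside that of *Col1a2*, the α2 chain of type I collagen on chromosome 6 and the dim gene whose strains stood furthest apart. Both are the 200 bases before the RefSeq start in GRCm38.p6, read 5′ to 3′ along the gene, at chr9:116175364-116175563 on the minus strand and chr6:4505418-4505617 on the plus strand, with CCAAT, or ATTGG for the same box on the other strand, in capitals.
Tgfbr2: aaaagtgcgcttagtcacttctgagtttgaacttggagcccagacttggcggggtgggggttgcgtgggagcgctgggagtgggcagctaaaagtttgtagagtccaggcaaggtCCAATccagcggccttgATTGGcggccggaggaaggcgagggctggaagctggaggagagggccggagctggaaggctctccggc
Col1a2: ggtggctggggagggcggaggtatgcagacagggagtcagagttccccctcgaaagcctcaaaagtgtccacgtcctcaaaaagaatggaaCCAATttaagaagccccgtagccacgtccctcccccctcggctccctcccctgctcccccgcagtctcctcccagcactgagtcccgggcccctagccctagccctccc
The *Tgfbr2* window held 2 such boxes, 1 in each orientation, starting 85 and 68 bases before the start, and the *Col1a2* window held 1, starting 109 bases before it. The box was searched on both strands and was present in 29.3% of 32851 RefSeq promoters of the same length, with 2 or more in 7.98%. Of the 38 genes, 25 had a promoter in the table, and 9 of these held the box, 14 held GGGCGG and 4 held TATAAA, which were in 31.0% and 9.96% of all promoters. These are matches of letters, and nothing in the arrays bears on what binds there.

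*Tgfbr2* was measured at 10.23, 9.91, 10.18, 10.57, 10.35, 10.58, 10.30 and 10.28 in A/J samples 1 to 8, and at 10.74, 10.89, 11.15, 11.11, 11.01, 11.46, 10.90 and 11.22 in C57BL/6J samples 1 to 8. Every A/J sample lay below every C57BL/6J sample. The mean was 10.30 ± 0.216 in A/J and 11.06 ± 0.225 in C57BL/6J (SD, n = 8 each), a difference of -0.76 (SE 0.103), or 1.69-fold lower in A/J (limma adjusted *P* = 2.05e-05). The exact two-sided permutation *P* over the 16 samples was 0.0001554, the smallest that 8 against 8 allows. Any probe whose strains do not overlap must give this value, so it adds no support beyond the lack of overlap. A second *Tgfbr2* probe was dim and differed by -0.09 (adjusted *P* = 0.0556 over all probes). The difference therefore rests on 1 probe, and a strain difference in the sequence under that probe cannot be told apart from one in the transcript.

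*Tgfbr1*, the type I receptor on chromosome 4, was lower in A/J as well, below the 1.5-fold limit. Its brightest probe was at 10.87, 10.62, 10.97, 10.88, 10.90, 10.97, 10.84 and 11.03 in A/J samples 1 to 8, and at 11.12, 11.22, 11.34, 11.18, 11.03, 11.21, 11.19 and 11.48 in C57BL/6J samples 1 to 8. The strains did not overlap, although the highest A/J and the lowest C57BL/6J sample lay close together. The difference was -0.34 (SE 0.0638, adjusted *P* = 0.000633). The exact permutation *P* of 0.0001554 again followed from the lack of overlap. A second brighter probe of *Tgfbr1* differed by -0.13 (adjusted *P* = 0.466), and 2 dim probes by -0.00019 and 0.0066, so that 1 of the 4 probes of this gene passed. Of the 37 probes, the strains did not overlap in 2, these of *Tgfbr2* and *Tgfbr1*, against 8.51% of all probes compared.

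The ligand and a target of the pathway did not pass the test. *Tgfb1*, the main TGF-β ligand, averaged 8.54 ± 0.139 in A/J and 8.63 ± 0.127 in C57BL/6J (adjusted *P* = 0.390). *Ctgf*, connective tissue growth factor, which TGF-β induces, averaged 9.71 ± 0.334 in A/J and 9.91 ± 0.430 in C57BL/6J (adjusted *P* = 0.466), with wide overlap.

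**Figure D2:**
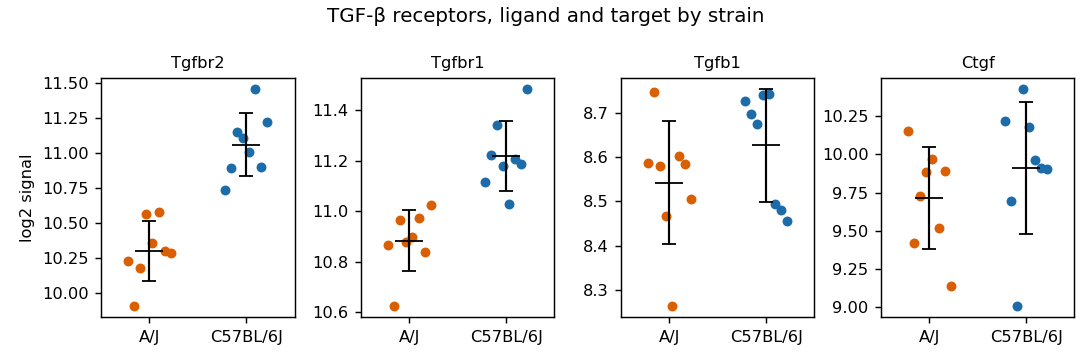
Log2 signal of *Tgfbr2*, *Tgfbr1*, *Tgfb1* and *Ctgf* in each sample (points), with mean and SD per strain, 8 samples each. The A/J samples lie below all C57BL/6J samples for the 2 receptors and overlap them for *Tgfb1* and *Ctgf*.

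Both chains of type I collagen, the main fibre of scar tissue, were lower in A/J. *Col1a1*, the α1 chain, had a lowest, median and highest value of 7.85, 7.88 and 8.03 in A/J and of 7.88, 8.25 and 8.69 in C57BL/6J. The A/J samples sat in a narrow band at the bottom of the C57BL/6J range, and the difference was -0.33 (SE 0.0845, adjusted *P* = 0.00716). *Col1a2* was at 7.77, 7.88, 7.86, 7.81, 7.82, 7.91, 7.86 and 7.82 in A/J samples 1 to 8, and at 8.09, 8.08, 7.99, 8.17, 8.17, 8.14, 8.13 and 8.09 in C57BL/6J samples 1 to 8. No A/J sample reached the lowest C57BL/6J sample. The difference was -0.26 (SE 0.0280, adjusted *P* = 2.92e-06 over all probes). The exact permutation *P* of 0.0001554 followed from the lack of overlap here too. These levels lie at the array median of 8.01 and near the lowest value of any probe, 7.61, so that the fold changes of both chains can understate a difference.

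*Col3a1*, type III collagen, which forms fibres with type I, had a lowest, median and highest value of 7.87, 8.29 and 8.46 in A/J and of 8.02, 8.57 and 8.86 in C57BL/6J, a difference of -0.34 (SE 0.120, adjusted *P* = 0.0473), while a dim second probe differed by -0.01. In both strains samples 1 to 4 lay below samples 5 to 8, at 7.87 to 8.25 against 8.32 to 8.46 in A/J and at 8.02 to 8.50 against 8.65 to 8.86 in C57BL/6J. The labels name no batch, and the same split in both strains, in either direction, held for 2 of the 37 probes and for 5.97% of all probes compared; the other was the second *Tgfbr1* probe. The *Col3a1* difference did not pass without a filter on dim probes (adjusted *P* = 0.0842), nor in 11 of the 16 fits that left out 1 sample. With samples 1 to 4 and 5 to 8 as a block it passed (adjusted *P* = 0.000938), and the difference was -0.29 in samples 1 to 4 alone (adjusted *P* = 0.116) and -0.39 in samples 5 to 8 alone (adjusted *P* = 0.00284). *Col5a1*, a minor fibrillar collagen that sets fibre width, differed by 0.11 (adjusted *P* = 0.429), and the dim *Col5a2* by 0.03.

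Among the network-forming collagens, *Col6a1*, a chain of the beaded microfibril collagen VI, differed most. It had a lowest, median and highest value of 8.55, 8.82 and 9.11 in A/J and of 8.98, 9.39 and 9.62 in C57BL/6J. Most A/J samples lay below every C57BL/6J sample. The difference was -0.53 (SE 0.0985, 1.44-fold, adjusted *P* = 0.000581), and a second probe differed by -0.23 (adjusted *P* = 0.00938), while another, dim probe differed by 0.04. *Col6a2*, its partner chain, was dim and differed by -0.16 (adjusted *P* = 0.00451 over all probes).

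The 2 chains of basement membrane collagen IV lay lower in A/J on average and did not pass the test as fitted. *Col4a1* averaged 9.98 ± 0.185 in A/J and 10.32 ± 0.348 in C57BL/6J (adjusted *P* = 0.0568), and *Col4a2* averaged 9.56 ± 0.176 in A/J and 9.81 ± 0.229 in C57BL/6J (adjusted *P* = 0.0613). With samples 1 to 4 and 5 to 8 as a block both passed (adjusted *P* = 0.0160 for *Col4a1* and 0.0293 for *Col4a2*). In A/J samples 1 to 8 *Col4a1* was at 9.88, 10.08, 10.17, 10.12, 9.84, 10.17, 9.67 and 9.88, and in C57BL/6J samples 1 to 8 at 10.64, 10.67, 10.11, 10.82, 10.14, 10.30, 9.93 and 9.95. *Col4a2* was at 9.64, 9.59, 9.84, 9.39, 9.40, 9.75, 9.49 and 9.38 in A/J samples 1 to 8 and at 9.84, 9.91, 9.87, 10.20, 9.72, 9.89, 9.64 and 9.42 in C57BL/6J samples 1 to 8. C57BL/6J sample 4 was the highest of its strain for both chains, and the strains overlapped. *Col14a1*, a collagen on the surface of fibres, was at 8.65 in both strains (adjusted *P* = 0.990).

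**Figure D3:**
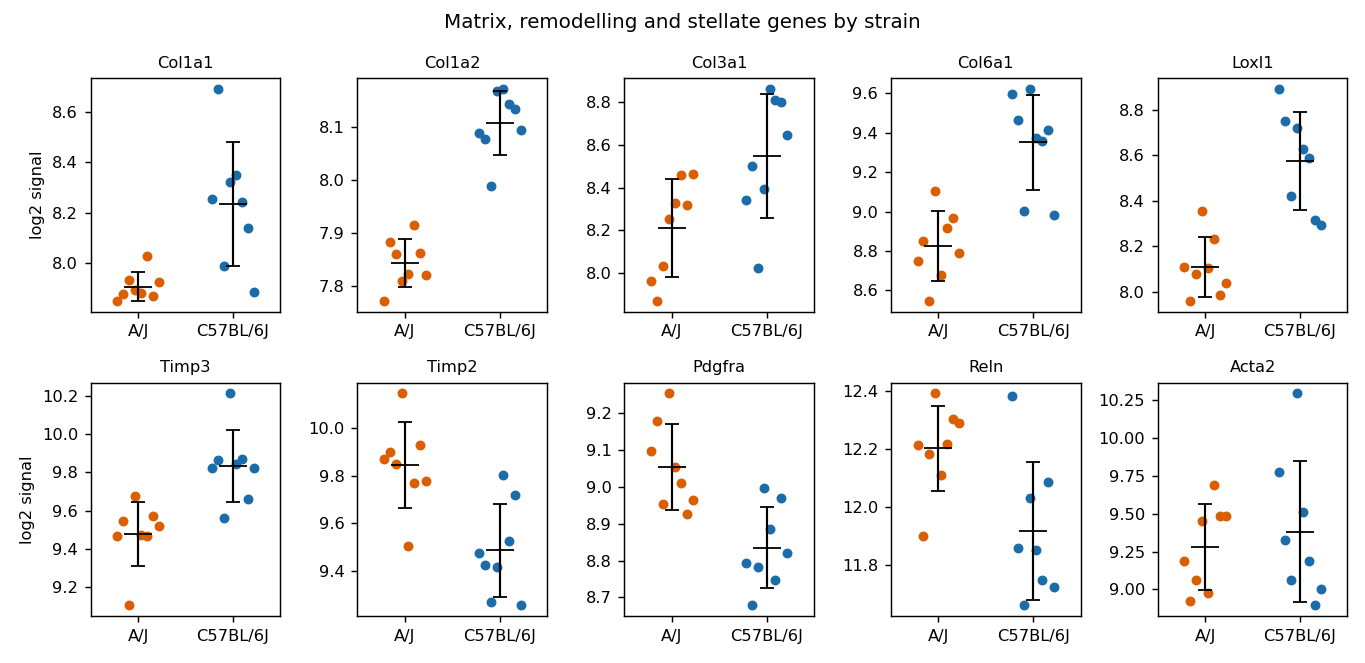
Log2 signal of 10 of the genes in each sample (points), with mean and SD per strain, 8 samples each. *Timp2*, *Pdgfra* and *Reln* were higher in A/J and *Acta2* did not pass the test, while the 6 others passed as lower in A/J.

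Of 9 stellate and contractile genes compared, 2 (22.2%) were higher in A/J by the adjusted *P* and none was lower, against 15.5% and 12.6% of all genes compared. *Pdgfra*, a receptor for platelet-derived growth factor, averaged 9.05 ± 0.116 in A/J and 8.83 ± 0.109 in C57BL/6J (difference 0.22, SE 0.0564, adjusted *P* = 0.00711). *Reln*, reelin, a secreted glycoprotein of quiescent stellate cells, had a lowest, median and highest value of 11.90, 12.22 and 12.39 in A/J and of 11.66, 11.86 and 12.38 in C57BL/6J (difference 0.28, SE 0.0928, adjusted *P* = 0.0301). Both overlapped between strains, and *Reln* did not pass the adjusted *P* in 7 of the 16 fits without 1 sample.

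The other stellate genes did not pass. *Lrat*, which makes the stored retinyl esters, averaged 9.10 ± 0.195 in A/J and 8.92 ± 0.261 in C57BL/6J (adjusted *P* = 0.239), with a range of 8.78 to 9.41 in A/J and of 8.51 to 9.24 in C57BL/6J. *Acta2*, the smooth muscle actin of myofibroblasts, had a lowest, median and highest value of 8.92, 9.32 and 9.69 in A/J and of 8.89, 9.26 and 10.30 in C57BL/6J (difference -0.10, adjusted *P* = 0.742). Its highest value was that of C57BL/6J sample 4, and without that sample the difference was 0.030. Its 3 other brighter probes differed by -0.02 to -0.07. *Vim*, vimentin, differed by -0.23 (adjusted *P* = 0.0951), *Pdgfrb* by -0.06, *Des*, desmin, by -0.03, *Hgf*, hepatocyte growth factor, by 0.03 and *Ecm1*, a secreted matrix protein, by 0.08. The *Vim* difference was -0.43 in samples 1 to 4 alone (adjusted *P* = 0.00424) and -0.02 in samples 5 to 8 alone (adjusted *P* = 0.914). *Tagln*, a contractile protein, was dim, at 7.85 to 8.02 in A/J and 7.92 to 8.08 in C57BL/6J, and differed by -0.06.

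Of the proteoglycans and adhesive proteins, 2 small leucine-rich proteoglycans that bind collagen or growth factors were lower in A/J. *Bgn*, biglycan, had a lowest, median and highest value of 11.79, 11.91 and 12.11 in A/J and of 11.91, 12.19 and 12.41 in C57BL/6J (difference -0.24, SE 0.0701, adjusted *P* = 0.0161). *Lum*, lumican, differed by -0.18 (adjusted *P* = 0.0352), and did not pass in 7 of the 16 fits without 1 sample. *Dcn*, decorin, of the same family, did not pass (-0.03, adjusted *P* = 0.853), nor did *Sparc*, a collagen-binding glycoprotein (0.25, adjusted *P* = 0.130). A second brighter probe differed by -0.15 for *Dcn* (adjusted *P* = 0.400) and by 0.20 for *Sparc* (adjusted *P* = 0.374). *Thbs1*, thrombospondin 1, which can activate latent TGF-β, was dim and differed by 0.02.

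Crosslinking and remodelling genes moved in both directions. *Loxl1*, a lysyl oxidase best known for crosslinking elastin, had a lowest, median and highest value of 7.96, 8.09 and 8.36 in A/J and of 8.29, 8.61 and 8.89 in C57BL/6J (difference -0.47, SE 0.0840, 1.38-fold, adjusted *P* = 0.000383). The strains met only at the edge of their ranges. *Timp3*, the inhibitor that stays bound to matrix, had 9.10, 9.50 and 9.68 in A/J and 9.56, 9.83 and 10.21 in C57BL/6J (difference -0.35, SE 0.0843, adjusted *P* = 0.00409), while a dim second probe differed by -0.02. *Timp2*, a soluble inhibitor of the same family, ran the other way, with 9.50, 9.86 and 10.15 in A/J and 9.25, 9.45 and 9.80 in C57BL/6J (difference 0.36, SE 0.0884, adjusted *P* = 0.00541). The *Timp2* difference was 0.55 in samples 1 to 4 alone (adjusted *P* = 0.00096) and 0.17 in samples 5 to 8 alone (adjusted *P* = 0.408). *Mmp2*, a gelatinase, differed by -0.18 (adjusted *P* = 0.0256) and *Mmp13*, a collagenase, by -0.16 (adjusted *P* = 0.107). *Timp1* and *Lox* were dim, with differences of -0.06 to -0.12 over the 2 *Timp1* probes and -0.08 for *Lox*.

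Over the 16 dim probes, differences ran from -0.26 to 0.04. By the fit over all probes, 2 passed the adjusted *P*, those of *Col1a2* and *Col6a2*, against 1.9% of all dim probes. The strains did not overlap in 1, that of *Col1a2*, against 0.38% of all dim probes.

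The C57BL/6J samples varied more among themselves. The SD was larger in C57BL/6J for 28 of the 37 probes (75.7%), against 61.1% of all probes compared, and the median SD was 0.131 in A/J and 0.195 in C57BL/6J. Sample 4 was the highest of its strain for more genes than any other sample, in 11 of 29 genes in A/J and in 13 of 29 in C57BL/6J. The same count was not made over all genes compared. A/J sample 4 was also high in exocrine pancreas markers (mean 10.84), and C57BL/6J sample 4 was not (8.24). In C57BL/6J, samples 3 and 8 were the lowest in 9 genes each.

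**Figure D4:**
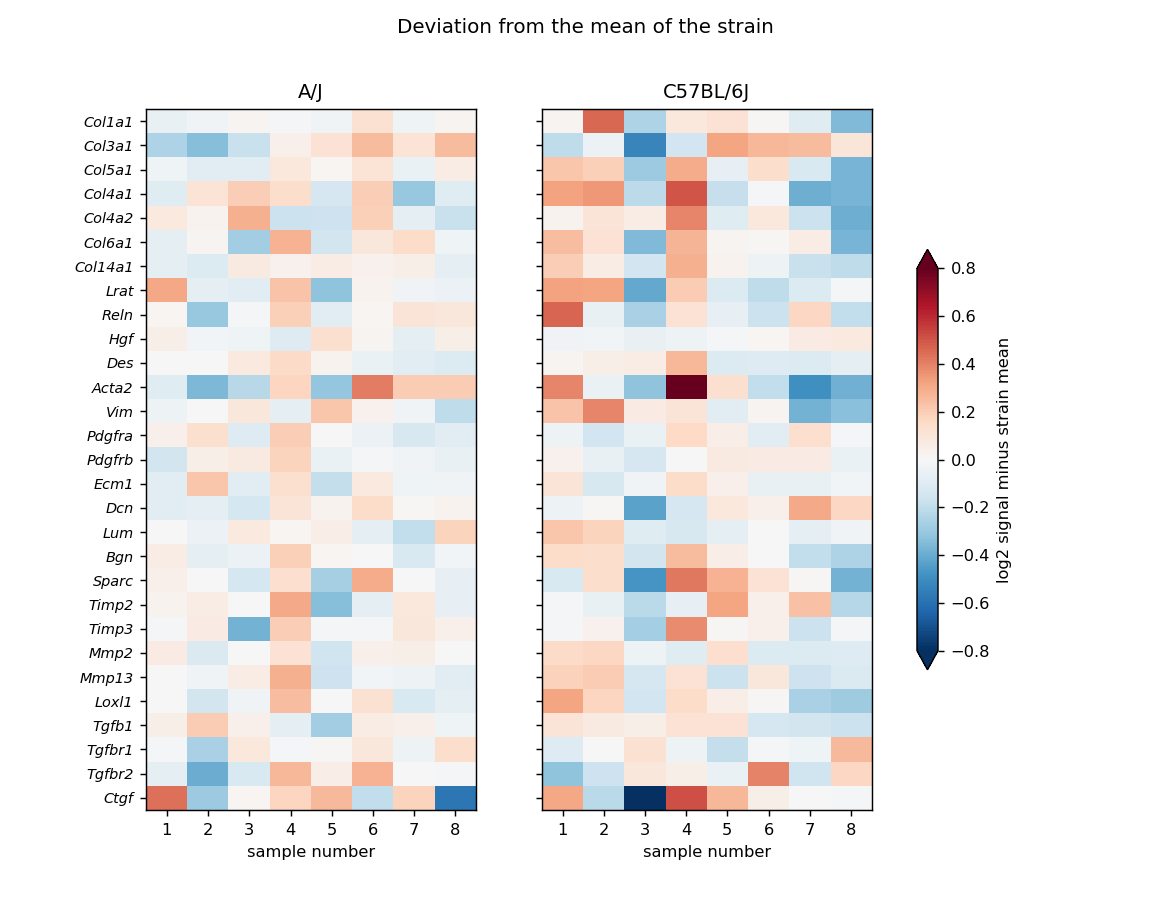
Deviation of each sample from its strain mean (log2, colour scale) for the 29 genes, with A/J samples left of C57BL/6J samples. Sample 4 of each strain is the highest of its strain in more genes than any other sample, 11 in A/J and 13 in C57BL/6J.

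Co-variation was examined in 5 pairs of genes over the 8 samples of each strain, 10 relations in all, and none passed an adjusted *P* of 0.05. Of the relations over the values as measured, the smallest *P* was that of *Col4a1* with *Col4a2*, whose chains assemble into 1 molecule, in C57BL/6J (*r* = 0.82, exact permutation *P* = 0.00526, adjusted 0.0526; rho = 0.86, *P* = 0.0107, adjusted 0.107, n = 8). Without the 2 samples farthest from the median, *r* was 0.66 (exact permutation *P* = 0.160), over 6 samples. It was 0.65 after centring samples 1 to 4 and 5 to 8 on their own means (adjusted *P* = 0.304 by exact permutation) and 0.81 without the sample high in pancreas genes (adjusted *P* = 0.111 by exact permutation). In A/J the same pair had *r* = 0.55 (exact permutation *P* = 0.157, adjusted 0.274; rho = 0.51, *P* = 0.197, adjusted 0.328), and 0.51 without its 2 farthest samples.

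*Lrat* with *Reln* had *r* = 0.46 in A/J (exact permutation *P* = 0.245, adjusted 0.351; rho = 0.62, *P* = 0.115, adjusted 0.287) and 0.65 in C57BL/6J (exact permutation *P* = 0.0751, adjusted 0.250; rho = 0.64, *P* = 0.0962, adjusted 0.287), and 0.60 in A/J and 0.62 in C57BL/6J without the 2 farthest samples. *Col1a1* with *Col1a2* had *r* = 0.66 in A/J (exact permutation *P* = 0.0712, adjusted 0.250; rho = 0.36, *P* = 0.389, adjusted 0.542) and 0.12 without the 2 farthest samples. In C57BL/6J that pair had *r* = 0.29 (exact permutation *P* = 0.478, adjusted 0.597; rho = 0.29, *P* = 0.501, adjusted 0.556) and 0.87 without the 2 farthest. *Acta2* with *Tagln* had *r* = 0.038 in A/J (exact permutation *P* = 0.918, adjusted 0.918; rho = 0.32, *P* = 0.433, adjusted 0.542) and 0.59 in C57BL/6J (exact permutation *P* = 0.117, adjusted 0.274; rho = 0.62, *P* = 0.115, adjusted 0.287), and 0.64 in A/J and 0.75 in C57BL/6J without the 2 farthest samples. *Col1a2* and *Tagln* were dim, with SDs of 0.046 and 0.059 in A/J and of 0.060 and 0.062 in C57BL/6J. *Col1a1* had an SD of 0.057 in A/J. How much of the *r* values of these pairs is measurement noise was not tested. For *Col1a1* with the brightest *Col3a1* probe no *r* over the values as measured is given, since the samples of that probe fell into separate clusters in both strains. With samples 1 to 4 and 5 to 8 centred on their own means, *r* was 0.45 in A/J (adjusted *P* = 0.325) and 0.92 in C57BL/6J (adjusted *P* = 0.0694, exact permutation within the clusters).

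**Figure D5:**
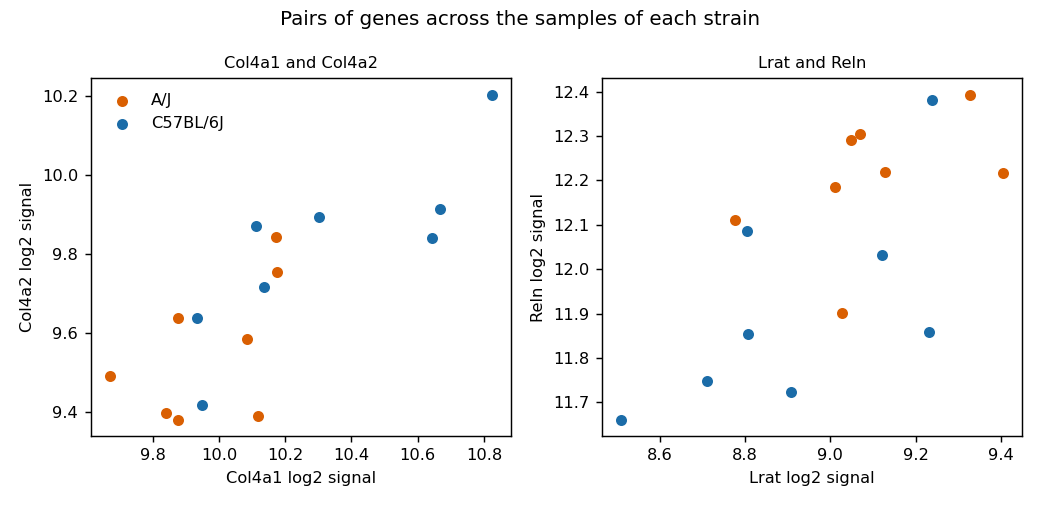
Log2 signal of *Col4a2* against *Col4a1* and of *Reln* against *Lrat*, 1 point per sample, 8 per strain. *Col4a1* and *Col4a2* had *r* = 0.82 in C57BL/6J and 0.55 in A/J, and no pair passed the adjusted *P*.

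Among 128 further genes of stellate cells, matrix and TGF-β or PDGF signalling, 73 were compared. By the adjusted *P* alone 10 were lower and 13 higher in A/J, so that 31.5% passed, against 28.1% of all genes compared. The 1 called gene (1.37%, against 5.29% of all genes compared) was *Lamb3*, a laminin β chain of epithelial basement membranes. It had a mean of 8.41 in A/J and 9.11 in C57BL/6J (difference -0.70, SE 0.162, 1.62-fold, adjusted *P* = 0.00333), with the C57BL/6J samples widely spread. Of 18 further genes of TGF-β signalling and latency, 2 were lower and 2 higher. Of 10 further collagens and fibre proteins, 1 was lower and 2 higher.

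Markers of the cell types a liver sample can hold were read beside these results. By the adjusted *P*, 15.5% of all genes compared were higher in A/J and 12.6% lower. Whether the counts on these short lists depart from those shares was not tested. The mean over 8 of 10 stellate markers was 10.18 to 10.35 in A/J and 9.97 to 10.25 in C57BL/6J, with 2 of the 8 higher and none lower in A/J by the adjusted *P*. Of these 8, 6 are among the 38 genes, so that this list repeats values given above. Over 9 of 12 hepatocyte markers it was 13.85 to 13.98 in A/J and 13.73 to 13.86 in C57BL/6J, with 2 of the 9 higher in A/J. Over 3 of 6 bile duct markers it was 8.04 to 8.14 in A/J and 8.10 to 8.30 in C57BL/6J (1 of 3 lower). That 1 marker differed by -0.40 (limma adjusted *P* = 3.70e-05) and the others by -0.017 and 0.057. The bile duct mean thus rests on 1 marker and cannot be read as bile duct cells. Over 3 of 5 mesothelial markers the mean was 9.43 to 9.63 in A/J and 9.51 to 9.80 in C57BL/6J (1 of 3 lower). The lower mesothelial marker was *Krt8*, a keratin, at 12.43 in A/J and 13.05 in C57BL/6J. The other mesothelial markers lay near the array median of 8.01 and did not pass. The mesothelial mean thus rests on *Krt8* and cannot be read as mesothelial cells. The 3 of 6 smooth muscle markers, of which 2 are among the 38 genes, had means of 8.38 to 8.66 in A/J and 8.31 to 8.98 in C57BL/6J, none passed the adjusted *P*, and the highest mean was that of C57BL/6J sample 4. Over 7 of 10 macrophage markers it was 9.98 to 10.70 in A/J and 10.29 to 10.61 in C57BL/6J, with 2 of the 7 lower in A/J by the adjusted *P*, and over 9 of 10 endothelial markers 9.86 to 10.02 in A/J and 9.84 to 10.08 in C57BL/6J, with 2 lower and 2 higher. Over 14 of 17 exocrine pancreas markers, A/J samples 4 and 7 stood at 10.84 and 10.66 and C57BL/6J sample 7 at 12.61, and the other samples at 8.16 to 8.95. Without these 3 samples *Tgfbr2* differed by -0.83 and *Col6a1* by -0.59, and both were called. *Col3a1*, *Reln* and *Lum* then no longer passed the adjusted *P*, and *Mmp13* did. The part of the other cell types in these results was not tested.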

How the data were processed

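Liver RNA of 8 A/J and 8 C57BL/6J samples was hybridised to 1 Illumina array each. The deposited values are log2 signals, which the authors made with BeadStudio and lumi, using quantile normalization. Neither labels nor methods state versions, background correction or the exact transform. Sorted arrays differed by at most 0.00086, and the number of arrays limits the precision.

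Strains were compared with limma 3.58.1 in R 4.3.3 (lmFit, eBayes, Benjamini-Hochberg) on the 13060 probes of the highest mean, the number kept in the methods. Detection values were not used here. Dim probes were fitted over all 25697 probes. A gene was represented by its brightest probe. *Ctgf* was matched by Entrez ID. The fit was tested on simulated data. Promoters came from RefSeq (GRCm38.p6). The 2 probe pairs of *Acta2* and *Timp1* that share 49 and 42 bases are not independent.

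All 38 genes were named, with values in every sample where called or not overlapping and, for the correlated pairs, in every sample or as ranges. Other genes were named only where called in a list. The genes and lists were chosen with earlier results of these data known. Same-numbered samples of the strains correlated at -0.015 to 0.54 in their deviations, over 0.1 in 6 of 8 pairs, and were not taken as pairs. Alternatives were other filters, normalizations, eBayes settings, array weights, blocks, fold thresholds, probes and sets of samples.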

Additional observations from a re-analysis of the deposited data

Results flagged for a closer look

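In 4 of 58 combinations of gene and strain, 1 sample stood apart from the other 7 by Dixon's criterion, which chance alone meets in about 1 in 20 groups. *Tgfbr1* was at 10.62 in A/J sample 2 and at 10.84 to 11.03 in the rest of that strain. *Timp3* was at 9.104 in A/J sample 3 and at 9.468 to 9.679 in the rest. *Col1a1* was at 8.028 in A/J sample 6 and at 7.847 to 7.93 in the rest. *Des* was at 8.556 in C57BL/6J sample 4 and at 8.179 to 8.351 in the rest of that strain.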

How the results depend on the processing

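The *Tgfbr2* difference was called in all 16 fits that left out 1 sample (-0.81 to -0.70, adjusted *P* 1.18e-05 to 7.24e-05). Over these fits the probes of the 38 genes that passed the adjusted *P* numbered 8 to 13 lower and 2 to 4 higher in A/J. In some of these fits *Col3a1* (highest adjusted *P* 0.0930), *Lum* (0.0701), *Reln* (0.0613) and *Mmp2* (0.0529) no longer passed the adjusted *P*. In some, *Col4a1* (lowest adjusted *P* 0.0258), *Col4a2* (0.0141), *Vim* (0.0254), *Mmp13* (0.0307) and *Sparc* (0.0470) passed as well. Without a filter *Col3a1* (0.0842), *Reln* (0.0527) and *Lum* (0.0513) did not pass. With the replicate block, *Col4a1* (0.0173) and *Col4a2* (0.0335) passed, *Mmp2* (0.0642) did not, and 12 probes were lower and 3 higher. With samples 1 to 4 and 5 to 8 as a block, 14 were lower and 3 higher, and *Col4a1*, *Col4a2* and *Mmp13* (0.0465) passed. Among the brighter 8000 probes 7 passed as lower, with fewer probes tested. With samples 1 to 4 alone 2 probes, of *Tgfbr2* and *Col6a1*, were called lower and none (0) of the further genes, and with samples 5 to 8 alone 5 passed as lower and 1 further gene was called higher. Without the 3 samples high in pancreas genes the same 2 were called lower. In that fit *Col3a1* (0.118), *Reln* (0.0927) and *Lum* (0.104) did not pass the adjusted *P*, and *Mmp13* (0.0297) passed. Of the 13 genes that passed, 6 failed in samples 1 to 4 alone and 7 in samples 5 to 8 alone, each with fewer samples. At a fold threshold of 2, 0 probes and 0 further genes were called, and with none, 11 lower and 3 higher, and 10 lower and 13 higher. Further genes called higher numbered 0 to 1 without 1 sample. The further gene was *Hspg2*, perlecan, named after its values were seen (0.53 with all samples, 0.75 in samples 5 to 8, and 0.61, 0.60 and 0.60 without C57BL/6J sample 1, 2 or 4). Some small differences that did not pass changed sign: *Col5a1* -0.031, *Col14a1* -0.12, *Pdgfrb* 0.016 and *Dcn* 0.068 in samples 1 to 4, *Des* 0.014 and *Acta2* 0.26 in samples 5 to 8, and *Col14a1* -0.037 without the pancreas-high samples. Without 1 sample *Col14a1* ran from -0.027 to 0.043, *Des* from -0.051 to 0.0088, *Acta2* from -0.17 to 0.030 and *Dcn* from -0.088 to 0.016. The correlation of *Acta2* with *Tagln* in A/J was -0.092 after centring samples 1 to 4 and 5 to 8, -0.13 without the pancreas-high samples, and -0.0090 and -0.18 with other *Acta2* probes. That of *Col1a1* with the dim *Col3a1* probe in A/J was -0.11 over the values as measured. With the brightest *Col3a1* probe it was 0.45 after centring. The cause of these changes was not tested. Signals near the array median limit what can be read for the dim collagens.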
